A study of Mus musculus with 12 samples.

Results

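NF-kappaB subunits and their inhibitors were followed at the RNA level in the mouse cytotoxic T cell line CTLL-2, whose growth and survival depend on the cytokine interleukin 2 (IL-2). The genes were taken by symbol from the platform's probe table. Of the 10 genes named (Rel, Rela, Relb, Nfkb1, Nfkb2, Nfkbia, Nfkbib, Nfkbie, Bcl3 and Tnfaip3), 9 had probe sets with that symbol, 17 in all, and Nfkb1 was not analysed here. All 9 were among the 12754 genes that passed the filter on low signals. Expression was measured as 1 linear signal per probe set on Affymetrix whole-genome mouse arrays. In the IL-2 group, labelled IL-2 plus cycloheximide, cells starved of IL-2 for 14 h received the translation inhibitor cycloheximide for 30 min and then human recombinant IL-2 at 100 U/mL for 4 h. In the 4.5 h group, cells starved in the same way received cycloheximide alone for 4.5 h. In the 30 min group they received cycloheximide alone for 30 min. Cycloheximide was given at 20 µg/mL, a reading of a damaged unit sign in the labels, which do not say whether it was washed out before IL-2 was added. All groups therefore carried both starvation and cycloheximide, and the action of the inhibitor itself cannot be read from them. Each group had 4 arrays, of which the array labelled IL-2 plus cycloheximide replicate 3 was set aside, leaving 11.

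NF-kappaB is a family of dimeric transcription factors built from the Rel-domain proteins RelA, c-Rel, RelB, p50 and p52. In resting cells the dimers are held in the cytoplasm by IkB proteins, which are marked by the IkB kinase complex and destroyed when a receptor fires. Freed dimers then switch on, among many other genes, those of IkB alpha and the ubiquitin-editing enzyme A20, which close the loop by restraining the pathway. In T cells the family acts downstream of the antigen receptor, costimulation and TNF family receptors, and c-Rel is particularly prominent in lymphocytes.

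The array set aside carried no T cell transcripts. Among 8 T cell genes measured, Cd3d, part of the CD3 signalling complex, stood at 23.2 on it and at 22511 or more on the other 11 arrays, and Myog, a muscle transcription factor, at 13203 against at most 58.1. On those 11 arrays Cd2, a T cell adhesion receptor, did not exceed 14.7, against 35.5 on the array set aside. That array had sums of 351 for the 8 T cell genes, 72617 for 4 muscle genes and 8871 for 4 fibroblast genes. Col3a1 gave 8760 of the last. The muscle gene Des read 92.4 on it, within the 3.1 to 102 of the 11 arrays. On the 11 arrays the sum of the 8 T cell genes ran from 145045 to 157247 with IL-2, from 171932 to 220862 at 4.5 h and from 172585 to 257109 at 30 min. The sum of 4 myeloid genes was 301 to 470 with IL-2, 493 to 793 at 4.5 h and 355 to 553 at 30 min, and sums for 3 B cell, 4 fibroblast and 4 muscle genes did not exceed 347 on these arrays. The part of these marker levels in the results was not tested. Arrays were scanned on 3 days. The 3 IL-2 arrays shared the first day with 3 arrays of the 30 min group, and the third day held the 4.5 h group alone. For any comparison with that group, scan day and group cannot be told apart. The log2 excess of Actb signal at the 3′ end over the 5′ end, which grows as RNA integrity falls, was 0.22 to 0.27 with IL-2. It was 0.42 to 0.80 at 4.5 h and 0.25 to 0.33 at 30 min. For Gapdh the same difference was −0.26 to −0.17 with IL-2, −0.12 to 0.05 at 4.5 h and −0.31 to −0.12 at 30 min. The part of RNA integrity in the results was not tested either. In bulk RNA, fewer cells with a transcript and less of it per cell cannot be told apart.

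Over the further hours in cycloheximide without IL-2, 7 of the 9 genes rose to more than 2-fold. They were Bcl3, Relb, Nfkbie, Nfkbia, Tnfaip3, Rel and Nfkbib, in order of size from 4.00-fold to 2.13-fold, and 0 fell. Calls required a 2-fold difference or more together with a limma adjusted p (Benjamini-Hochberg) under 0.05, which 7.22% of all genes met as higher and 4.75% as lower in the same comparison. The median log2 difference was 1.39 over the 9 genes and 0.08 over all genes tested. With IL-2 against 30 min 6 of the 9 were called higher and 0 lower, where 6.94% of all genes were called higher, and the median difference was 1.42 against −0.03 for all genes. These 2 groups differ both in IL-2 and in the time since cycloheximide was given, which cannot be told apart in that comparison. Between the IL-2 and 4.5 h groups 1 gene, Rel, was called, where 5.04% of all genes were called higher and 5.94% lower. Counting probe sets, 2 of the 17 were called between IL-2 and 4.5 h (12.1% of all probe sets), 12 between 4.5 h and 30 min (13.2%) and 10 between IL-2 and 30 min (10.6%). Without the fold threshold, 2 of the 9 genes passed between IL-2 and 4.5 h (29.3% of all genes), 7 between 4.5 h and 30 min (33.7%) and 7 between IL-2 and 30 min (27.1%). These 3 comparisons share arrays in pairs and are not independent of each other. Centring arrays on ribosomal protein genes, an alternative scaling cited for several genes, moved the median log2 difference of all genes to 0.64 for IL-2 over 4.5 h, −0.21 for 4.5 h over 30 min and 0.39 for IL-2 over 30 min. Differences are given as log2(signal + 16) with their SE, which understates changes of dim probe sets.

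**Figure D1:**
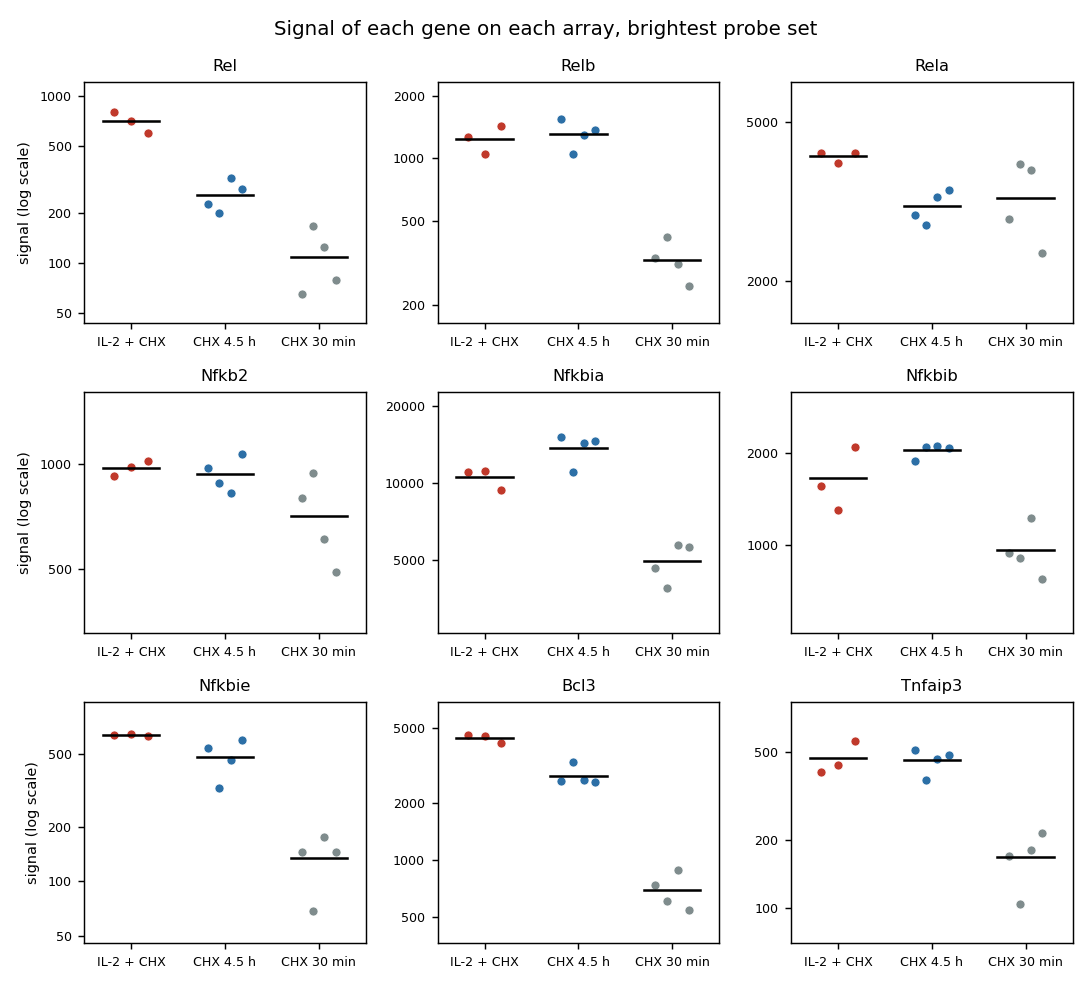
Signal (log axis) of the brightest probe set of each of 9 genes on the 11 arrays used, as points for the IL-2 group (n = 3), the 4.5 h group (n = 4) and the 30 min group (n = 4), with the group mean as a bar and CHX for cycloheximide. The arrays of Rel, Bcl3 and, by a narrower margin, Nfkbie separate all 3 groups, the groups of Rela lie close together, and the late groups of Relb and Tnfaip3 overlap above 30 min.

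The 250 bases before the starts of these genes were read for the kappaB consensus motif, the DNA element that NF-kappaB dimers bind, on both strands. Sequences are from RefSeq on GRCm38.p6, and 8 of the 9 measured genes had an entry, Relb being the exception. The motif was found for 5 of the 8, namely Rel, Nfkb2, Nfkbia, Nfkbie and Tnfaip3, and in 7 of the 11 windows of all 8 genes, the alternative starts of Nfkb2 and Tnfaip3 included. Of 32851 windows of the same length before RefSeq starts, 3.90% held it, which is a share of windows and not of genes. Windows of the same gene are not independent, and some of those of Nfkb2 overlap. The motif was not found in the windows read for Bcl3, Rela or Nfkbib. A match describes letters and not a bound site. Nfkb2 held a match in all its windows, yet its brightest probe set was not called in any comparison. Nfkbib and Bcl3 held none and were called higher at 4.5 h than at 30 min. Whether the motif has a part in the differences was not tested. The windows of Nfkbia, Rel and Tnfaip3 are given 5′ to 3′ in the direction of the gene as genes that rose and hold a match, and that of Bcl3 as the gene with the largest rise and none. Capitals mark every base inside a match.
Nfkbia, chr12:55492648-55492897, minus strand: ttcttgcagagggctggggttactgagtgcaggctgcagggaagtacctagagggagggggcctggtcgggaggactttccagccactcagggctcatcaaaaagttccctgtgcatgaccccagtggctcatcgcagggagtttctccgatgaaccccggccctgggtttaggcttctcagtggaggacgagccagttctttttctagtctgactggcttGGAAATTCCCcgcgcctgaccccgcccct
Rel, chr11:23770970-23771219, minus strand: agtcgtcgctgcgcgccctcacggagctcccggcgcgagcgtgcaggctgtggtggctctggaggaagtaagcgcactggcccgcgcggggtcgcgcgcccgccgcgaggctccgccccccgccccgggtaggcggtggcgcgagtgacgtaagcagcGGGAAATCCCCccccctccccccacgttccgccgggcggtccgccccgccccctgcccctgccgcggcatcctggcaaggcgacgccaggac
Tnfaip3, chr10:19015411-19015660, minus strand: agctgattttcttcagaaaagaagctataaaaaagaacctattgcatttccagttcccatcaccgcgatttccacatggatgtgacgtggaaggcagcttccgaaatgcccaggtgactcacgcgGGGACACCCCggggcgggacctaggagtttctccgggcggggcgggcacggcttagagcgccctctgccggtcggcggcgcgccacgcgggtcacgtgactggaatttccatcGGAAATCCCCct
Bcl3, chr7:19822756-19823005, minus strand: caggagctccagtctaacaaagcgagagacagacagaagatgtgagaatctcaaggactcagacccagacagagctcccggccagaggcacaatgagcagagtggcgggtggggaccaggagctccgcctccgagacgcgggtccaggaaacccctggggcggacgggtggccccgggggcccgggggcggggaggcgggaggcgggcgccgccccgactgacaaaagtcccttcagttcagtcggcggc
The match of Nfkbia begins 29 bases before the start. That of Rel begins 92 bases before it, where matches on both strands overlap in 1 stretch. Tnfaip3 has a match beginning 125 bases and another beginning 12 bases before its start.

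Rel, which encodes the subunit c-Rel (probe set 1420710_at, chromosome 11, 23736847 to 23770969 in GRCm38.p6), had signals of 811, 717 and 606 with IL-2. The 4 arrays at 4.5 h read 224, 199, 322 and 277, and those at 30 min 64.7, 166, 124 and 78.2. No array of one group overlapped another group, so the levels ran IL-2, 4.5 h, 30 min from high to low with gaps between all neighbours. With IL-2 the mean was 711 ± 103 (SD, n = 3), against 255 ± 55.0 (SD, n = 4) at 4.5 h, a log2 difference of 1.44 ± 0.28 (SE, adjusted p = 0.00389), or 2.70-fold. The gene was also higher at 4.5 h than at 30 min, where it averaged 108 ± 46.3 (SD, n = 4), with a difference of 1.18 ± 0.26 (adjusted p = 0.00609). Between the IL-2 and 30 min groups the difference was 2.61 ± 0.28 (adjusted p = 1.44e-04), or 6.12-fold. The rise over time fell just short of 2-fold without the 30 min replicate 1 (0.99), and it was also under 2-fold with a pseudocount of 64 (0.91) or with arrays centred on ribosomal protein genes (0.89). On the array set aside Rel read 38.9, and with all 12 arrays the differences of 0.51, 1.18 and 1.68 were not called.

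Relb encodes RelB, the partner of p52 in the alternative pathway (1417856_at, chromosome 7, 19606217 to 19629438). It read 1262, 1047 and 1424 with IL-2, then 1542, 1047, 1298 and 1363 at 4.5 h, and 334, 421, 313 and 244 at 30 min. Both late groups lay above every 30 min array and overlapped each other. At 4.5 h the mean was 1312 ± 205 (SD, n = 4), against 328 ± 72.8 (SD, n = 4) at 30 min, a log2 difference of 1.96 ± 0.19 (SE, adjusted p = 8.23e-05), or 3.89-fold. The difference between the IL-2 and 30 min groups was 1.89 ± 0.20 (adjusted p = 1.52e-04). That between IL-2 and 4.5 h was −0.07 ± 0.20 (adjusted p = 0.826), with a 95% interval from −0.52 to 0.38, and its sign turned with ribosomal protein centring (0.64).

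Rela encodes RelA or p65, the main activating subunit of the classical pathway (1419536_a_at, chromosome 19, 5637442 to 5648134), and was not called in any of the 3 comparisons. Its signals were 4193, 3957 and 4175 with IL-2, against 2916, 2763, 3250 and 3383 at 4.5 h and 2857, 3925, 3792 and 2346 at 30 min. All 3 IL-2 arrays lay above all others, the nearest being a 30 min array, and the late and early groups without IL-2 overlapped throughout. The difference between IL-2 and 4.5 h was 0.42 ± 0.19 (SE, adjusted p = 0.125). Between 4.5 h and 30 min it was −0.04 ± 0.17 (adjusted p = 0.878), with a 95% interval from −0.43 to 0.34, and it turned to 0.04 when arrays were centred on their medians. The highest upper bound of the 3 intervals was 0.83, which is under 2-fold, while ribosomal protein centring gave a called difference of 1.13 between IL-2 and 4.5 h.

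Nfkb2 encodes p100, which is cut to p52 and in its uncut form acts like an IkB protein (chromosome 19, 46300994 to 46312400). Its brighter probe set, 1425902_a_at, read 922, 982 and 1020 with IL-2, 972, 882, 828 and 1071 at 4.5 h, and 798, 940, 611 and 492 at 30 min. The 3 groups overlapped, and the differences of 0.06 ± 0.21 between IL-2 and 4.5 h, 0.43 ± 0.19 between 4.5 h and 30 min, and 0.49 ± 0.21 between IL-2 and 30 min were not called (SE, adjusted p = 0.867, 0.118 and 0.121). The dimmer probe set 1429128_x_at gave a different picture. It averaged 258 ± 45.7 (SD, n = 3) with IL-2, 453 ± 104 (SD, n = 4) at 4.5 h and 212 ± 113 (SD, n = 4) at 30 min. Its rise over time was called at 1.16 ± 0.34 (adjusted p = 0.0245), although 1 array at 30 min, with 359, lay above the lowest at 4.5 h, with 346.

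Nfkbia encodes IkB alpha, the inhibitor that is resynthesised soonest after NF-kappaB is activated (chromosome 12, 55489409 to 55492647), and it had 5 probe sets. The brightest, 1420088_at, read 11070, 11176 and 9408 with IL-2, 15115, 11020.4, 14396 and 14552 at 4.5 h, and 4647, 3900, 5763 and 5632 at 30 min. Every late array lay above every 30 min array, while the IL-2 and 4.5 h groups overlapped through the 4.5 h replicate 2. At 4.5 h the mean was 13770.5 ± 1859 (SD, n = 4), against 4985 ± 879 (SD, n = 4) at 30 min, a log2 difference of 1.47 ± 0.17 (SE, adjusted p = 1.84e-04), or 2.77-fold. With IL-2 it was 10551 ± 991 (SD, n = 3), 1.09 ± 0.18 above 30 min (adjusted p = 0.00166). That value was 0.98, under 2-fold, without the 30 min replicate 2, and 0.92 as a mean over probe sets. With all 12 arrays, where the array set aside read 3456, it was 0.69 and not called.

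All 5 probe sets of Nfkbia were lower with IL-2 than at 4.5 h on average, by unequal amounts. The log2 differences were −0.38 ± 0.18 for 1420088_at (SE, adjusted p = 0.148), −0.57 ± 0.25 for 1420089_at (adjusted p = 0.124) and −0.39 ± 0.26 for 1449731_s_at (adjusted p = 0.305). They were −0.90 ± 0.18 for 1448306_at (adjusted p = 0.00404) and −1.12 ± 0.32 for 1438157_s_at (adjusted p = 0.0234), the last of which was called lower. For 1448306_at the signals were 2603, 2628 and 3191 with IL-2, against 5504, 3951, 5525 and 6147 at 4.5 h, with no overlap. For 1438157_s_at they were 4674, 7065 and 8068, against 16688, 9935, 15009 and 15485. The mean over the 5 probe sets differed by −0.67 (adjusted p = 0.00763), short of 2-fold, and ribosomal protein centring turned the brightest probe set to 0.33. On 4 of the 5 probe sets the 4.5 h replicate 2 was the lowest of its group. Over time 4 of the 5 were called higher, by 1.45 to 2.23, and 1420089_at differed by 0.86 ± 0.24 (adjusted p = 0.0184).

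**Figure D2:**
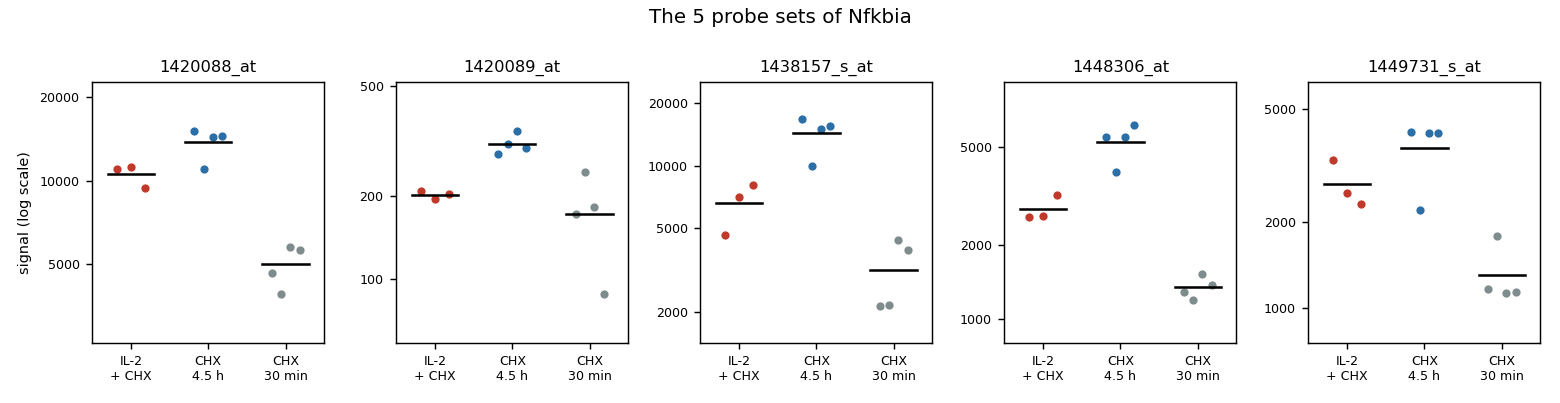
Signal (log axis) of the 5 probe sets of Nfkbia, named above each panel, on the 11 arrays used in the IL-2 (n = 3), 4.5 h (n = 4) and 30 min (n = 4) groups, with group means as bars. The 4.5 h mean is the highest in each panel, and the drop to the IL-2 mean is widest for 1438157_s_at and 1448306_at.

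Nfkbib encodes IkB beta, a slower-turning inhibitor (1421266_s_at, chromosome 7, 28758251 to 28766644). It read 1557, 1299 and 2100 with IL-2, 1890, 2090, 2110 and 2070 at 4.5 h, and 941, 904, 1228 and 773 at 30 min. Late arrays all exceeded the 30 min arrays, and the IL-2 group was the more scattered of the late groups. The mean of 2040 ± 101 (SD, n = 4) at 4.5 h stood against 961 ± 192 (SD, n = 4) at 30 min, a log2 difference of 1.09 ± 0.18 (SE, adjusted p = 0.00132). That was 0.995, just under 2-fold, without the 30 min replicate 4, and 0.80 with ribosomal protein centring. With IL-2 the difference from 30 min was 0.76 ± 0.20 (adjusted p = 0.0168), below the 2-fold threshold. Between IL-2 and 4.5 h it was −0.33 ± 0.20 (adjusted p = 0.244), or 0.38 with ribosomal protein centring. A second probe set, 1446718_at, stayed at or below 105 on the 11 arrays and was not called in any comparison.

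Nfkbie encodes IkB epsilon, another NF-kappaB-induced inhibitor (chromosome 17, 45555700 to 45563169). The brighter probe set, 1458299_s_at, read 636, 649 and 630 with IL-2, 543, 326, 467 and 601 at 4.5 h, and 146, 68.7, 176 and 144 at 30 min. The IL-2 arrays were all above the 4.5 h arrays, by a narrow margin, and both groups were well above 30 min. With IL-2 the mean of 638 ± 9.51 (SD, n = 3) stood 2.19 ± 0.28 (SE, adjusted p = 3.96e-04) above 134 ± 45.8 (SD, n = 4) at 30 min, or 4.56-fold. At 4.5 h it was 484 ± 119 (SD, n = 4), 1.77 ± 0.26 above 30 min (adjusted p = 6.91e-04). The difference between IL-2 and 4.5 h was 0.42 ± 0.28 (adjusted p = 0.302) and was called (1.13) only with ribosomal protein centring among the alternatives run. The second probe set, 1431843_a_at, rose in both comparisons with 30 min as well, by 1.36 ± 0.16 with IL-2 (adjusted p = 2.38e-04) and 1.14 ± 0.15 at 4.5 h (adjusted p = 3.53e-04).

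Bcl3 encodes a nuclear IkB-like protein that binds p50 and p52 homodimers and can act as a coactivator (1418133_at, chromosome 7, 19808462 to 19822824). Its signals were 4554, 4543 and 4128 with IL-2, 2613, 3302, 2644 and 2596 at 4.5 h, and 739, 607, 881 and 547 at 30 min. The 3 groups did not overlap and stood in the same order as for Rel. With IL-2 the mean was 4408 ± 243 (SD, n = 3), against 694 ± 149 (SD, n = 4) at 30 min, a log2 difference of 2.66 ± 0.18 (SE, adjusted p = 1.20e-05), or 6.33-fold. At 4.5 h it was 2789 ± 343 (SD, n = 4), 2.00 ± 0.17 above 30 min (adjusted p = 3.73e-05). IL-2 and 4.5 h differed by 0.66 ± 0.18 (adjusted p = 0.0191), or 1.58-fold, which is below the 2-fold threshold. Ribosomal protein centring raised that to 1.37. The array set aside read 140, and with all 12 arrays the difference between IL-2 and 4.5 h was −0.54 and neither of the others was called (2.00 at 4.5 h over 30 min, 1.46 with IL-2 over 30 min).

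Tnfaip3 encodes A20, the ubiquitin-editing enzyme that ends NF-kappaB signalling (chromosome 10, 19000910 to 19015410). The brighter probe set, 1433699_at, read 406, 436 and 556 with IL-2, 506, 374, 463 and 483 at 4.5 h, and 170, 104, 182 and 216 at 30 min. The late groups overlapped and both were above all 30 min arrays. The mean was 466 ± 79.3 (SD, n = 3) with IL-2, 457 ± 57.7 (SD, n = 4) at 4.5 h and 168 ± 46.8 (SD, n = 4) at 30 min. The log2 difference was 1.39 ± 0.21 (SE, adjusted p = 7.43e-04) for 4.5 h over 30 min and 1.42 ± 0.22 (adjusted p = 0.00132) for IL-2 over 30 min. Between IL-2 and 4.5 h it was 0.02 ± 0.22 (adjusted p = 0.953), with a 95% interval from −0.47 to 0.52, and −0.0064 with quantile normalization. The dimmer probe set 1450829_at averaged 154 ± 67.0 (SD, n = 3) with IL-2, 104 ± 31.8 (SD, n = 4) at 4.5 h and 62.0 ± 33.9 (SD, n = 4) at 30 min, and was not called in any comparison.

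**Figure D3:**
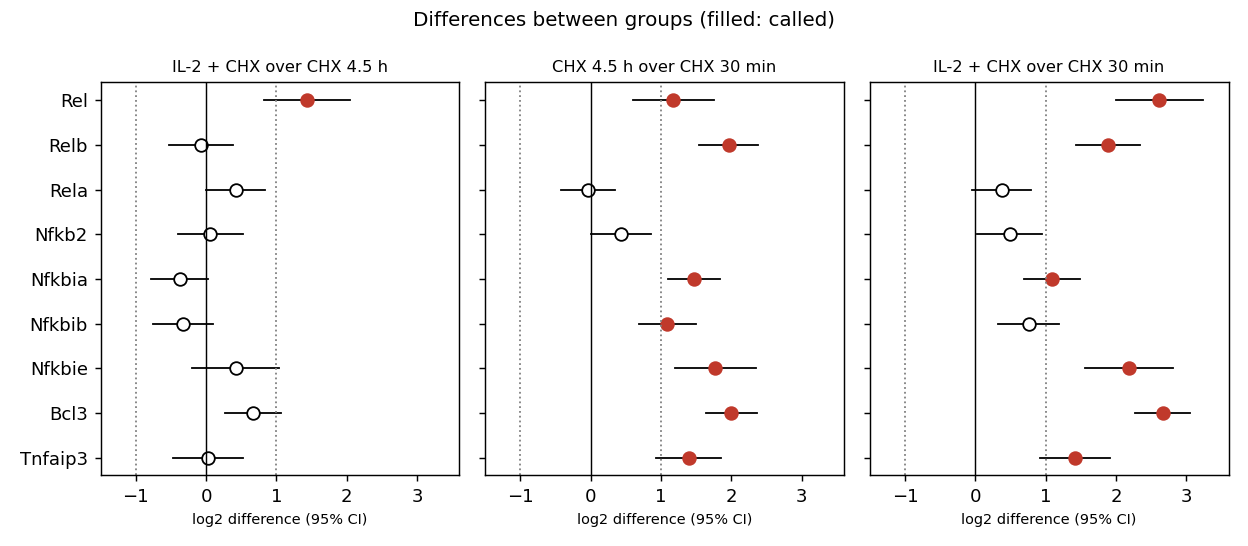
Log2 difference (points) with its 95% interval (lines) for the brightest probe set of each gene in the 3 comparisons, filled where called, with dotted lines at a 2-fold difference. Rel is the 1 filled point for IL-2 over 4.5 h, while 7 and 6 points are filled in the comparisons with 30 min.

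Counted on brightest probe sets, arrays did not overlap and stood higher for 4 of the 9 genes with IL-2 against 4.5 h. These were Rel, Rela, Nfkbie and Bcl3, and for 0 genes arrays stood lower, where the shares over all genes were 20.7% and 24.9%. Arrays also stood higher without overlap for 7 genes for 4.5 h against 30 min, where the shares were 21.2% higher and 14.6% lower. The same held for 8 genes with IL-2 against 30 min, where they were 18.9% and 17.6%, and 0 of the 9 stood lower in either comparison. Among dimmer probe sets, Nfkbia 1420089_at, 1448306_at and 1438157_s_at and Nfkb2 1429128_x_at stood lower with IL-2 than at 4.5 h without overlap. The other dimmer ones overlapped there, Nfkbie 1431843_a_at included. For IL-2 against 30 min, the fit within the first scan day, 3 arrays against 3, gave 6 genes called, with 10.4% of all genes called. With all 12 arrays the counts were 0 for IL-2 against 4.5 h, 5 for 4.5 h against 30 min and 3 for IL-2 against 30 min. With 12 arrays 565, 780 and 493 of all 12838 genes were called (4.40%, 6.08% and 3.84%), against 1401, 1527 and 1454 of 12754 genes with 11 arrays. Across the 11 arrays, which share the group differences above, the highest correlation between 2 of the genes was between Nfkbie and Tnfaip3 (Pearson r = 0.967, n = 11), and the lowest between Rela and Nfkbia (0.06).

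Of 33 kinases, adaptors and other components that carry signals to NF-kappaB, 29 were tested. With IL-2 against 4.5 h 2 of the 29 components rose and 0 fell, with a median of −0.01 beside −0.07 for all genes, of which 5.04% were called higher and 5.94% lower. Map3k7, the kinase TAK1, averaged 2368 ± 318 with IL-2 (SD, n = 3), against 1131 ± 74.0 at 4.5 h (SD, n = 4), a log2 difference of 1.05 ± 0.14 but of 0.02 as a mean over its probe sets. Tab3, which binds TAK1, rose by 1.15 ± 0.25. At 4.5 h against 30 min 2 rose and 1 fell (median 0.28 beside 0.08, with 7.22% and 4.75% of all genes). Map3k14, the kinase NIK of the alternative pathway, averaged 2017 ± 263 (SD, n = 4) at 4.5 h and 507 ± 37.2 (SD, n = 4) at 30 min (log2 difference 1.95 ± 0.13, adjusted p = 1.48e-05). Malt1, a protease of antigen receptor signalling, rose by 1.28 ± 0.13, though its probe sets disagreed and their mean differed by −0.17, and Map3k7 stood at −1.16 ± 0.13, or −0.17 as a mean over probe sets. With IL-2 against 30 min 3 rose and 0 fell (median 0.34 beside −0.03, with 6.94% and 4.46% of all genes), namely Map3k14 (1.37 ± 0.14), the adaptor Traf2 (1.34 ± 0.14) and the kinase Prkcq (1.19 ± 0.28). Prkcq was not called without the IL-2 replicate 2 (0.94) or within the first scan day (1.10).

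Other inhibitors and IkB-like genes were called in both directions, and of 15 listed, 14 were tested. With IL-2 against 4.5 h 5 of the 14 rose and 1 fell (median −0.14 beside −0.07 for all genes, of which 5.04% were called higher and 5.94% lower). The largest of these were Tnip2, an A20-binding protein (1.63 ± 0.25), Nfkbid, the nuclear inhibitor IkBNS (−1.62 ± 0.30), Otud7b, a deubiquitinase (1.57 ± 0.15, or 0.68 as a mean over probe sets), and Ier3 (1.33 ± 0.20). At 4.5 h against 30 min 1 rose and 3 fell (median 0.02 beside 0.08, with 7.22% and 4.75%). Nfkbiz, the nuclear protein IkB zeta, rose by 1.11 ± 0.25, while Ier3, Rnf11 and Otud7b had differences of −1.29 ± 0.18, −1.25 ± 0.20 and −1.11 ± 0.13. The last 2 were −0.63 and −0.17 as means over their probe sets. With IL-2 against 30 min Nfkbiz (2.00 ± 0.27) and Tnip2 (1.18 ± 0.25) rose and Nfkbid (−1.60 ± 0.30) fell (median −0.04 beside −0.03, with 6.94% and 4.46%). Nfkbiz averaged 513 ± 11.2 (SD, n = 3) with IL-2, 271 ± 29.7 (SD, n = 4) at 4.5 h and 126 ± 67.5 (SD, n = 4) at 30 min. Tnip2 was 0.93 and not called without the IL-2 replicate 4.

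Of 32 genes known as NF-kappaB targets in other settings, 22 were tested. With IL-2 against 4.5 h 6 of the 22 were called higher and 1 lower (median 0.46 beside −0.07 for all genes, of which 5.04% were called higher and 5.94% lower). At 4.5 h against 30 min 2 were called higher and 1 lower (median 0.41 beside 0.08, with 7.22% and 4.75%). With IL-2 against 30 min 5 were called higher and 0 lower (median 0.31 beside −0.03, with 6.94% and 4.46%). Lta, the cytokine lymphotoxin alpha, had the largest difference of the listed targets in all 3 comparisons and averaged 8281 ± 825 (SD, n = 3) with IL-2, 1639 ± 132 (SD, n = 4) at 4.5 h and 413 ± 17.9 (SD, n = 4) at 30 min. Its log2 difference was 4.27 ± 0.13 between IL-2 and 30 min (adjusted p = 1.39e-07) and 1.94 ± 0.12 between 4.5 h and 30 min (adjusted p = 1.12e-05). Gadd45b, a stress-response gene (2.48 ± 0.13), Bcl2l1, which protects from apoptosis (1.80 ± 0.23), and Cd69, an activation marker (1.55 ± 0.18), followed for IL-2 against 30 min. Il2ra, the IL-2 receptor alpha chain, went the other way over time at −1.78 ± 0.18 and was 2.12 ± 0.19 higher with IL-2 than at 4.5 h. The chemokine gene Ccl5 had 17.2 ± 18.6 with IL-2 (SD, n = 3), 90.9 ± 8.99 at 4.5 h (SD, n = 4) and 26.1 ± 18.3 at 30 min (SD, n = 4). It passed the filter, a signal of 33.6, through the 4.5 h group where it is high, so its calls between that group and the others had to favour 4.5 h and are given no size. Without it the targets called were 6 higher and 0 lower for IL-2 over 4.5 h, and 1 higher and 1 lower for 4.5 h over 30 min. Ribosomal protein centring raised the called counts between IL-2 and 4.5 h to 10 of the components and 12 of the targets, all higher, and changed the inhibitors to 6 higher and 0 lower. Over all genes, 3493 of 12754 were called there under that centring (27.4%), against 1401 without it.

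**Figure D4:**
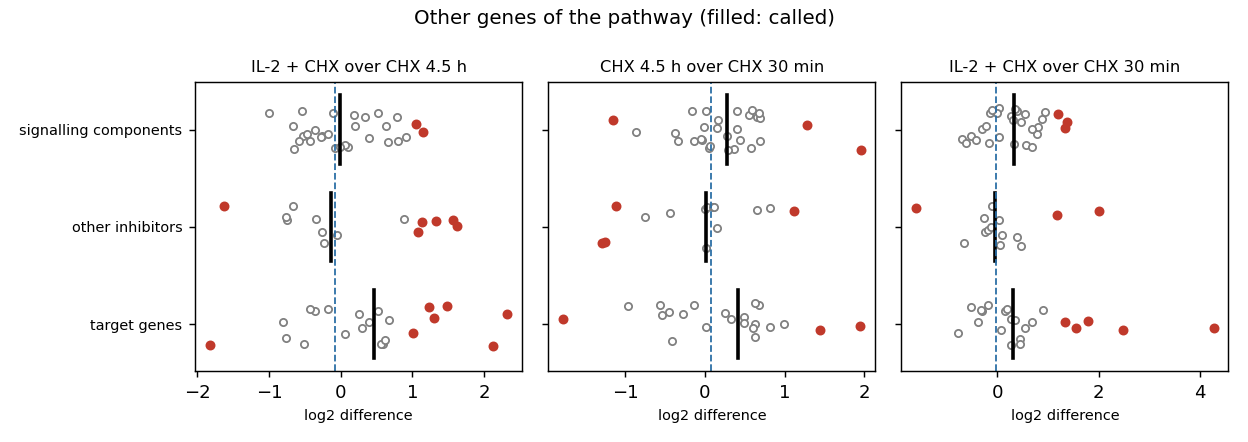
Log2 differences of the tested genes of 3 lists (29 signalling components, 14 other inhibitors, 22 target genes) in the 3 comparisons, filled where called. Black bars are list medians and the dashed blue line is the median of all genes tested. The 9 list medians run from −0.14 to 0.46, and called genes lie on both sides of 0. The filled target genes include Ccl5 in both comparisons with 4.5 h, although it passed the filter through that group. It is the only target gene called lower for IL-2 over 4.5 h.

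The genes whose pattern was most like 4 of the members over the 11 arrays are given by Pearson r on the log2 scale, as a description, since the arrays share the group differences. For Rel they were Pinx1 (0.981), Nprl3 (0.972) and Fam118b (0.969). For Nfkbia they were Nr2c2ap (0.983), Secisbp2 (0.981) and Armc7 (0.981). For Bcl3 they were Eef1akmt1 (0.994), Det1 (0.991) and Cep95 (0.985), and for Tnfaip3 Lactb2 (0.990), Ldah (0.989) and Shprh (0.986). Many other genes were nearly as close, with r above 0.9 for 169 genes with Rel, 272 with Nfkbia, 359 with Bcl3 and 336 with Tnfaip3, against 3 with Rela.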

How the data were processed

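RNA labelled as from CTLL-2 cells was hybridised to 12 arrays. Intensity values were taken from the authors' deposited table, a linear number for each probe set on each array. Per the submitters' processing notes they come from GCOS 1.3. Every array had a trimmed mean of 500.0 as deposited, so scaling had been applied. The sources used here do not give how probes were summarised or background corrected. Scan days were numbered from the scanner's information files.

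Of 45101 probe sets, 45037 were not controls, and the 27022 with a mean log2(signal + 16) at or above the 40th percentile (signal 33.6) were tested. The brightest probe set stood for a gene, with symbols from the platform's probe table updated by gene identifier (34945 probe sets with 1 symbol, 932 with several, 9160 with none). A model of 3 groups was fitted to 11 arrays with limma 3.58.1 (lmFit, eBayes, R 4.3.3) and tested on simulated data. Benjamini-Hochberg adjustment ran over all probe sets tested. The main fit did not pair arrays by replicate number. Whether replicates came from different cultures is not in the labels. The p-values therefore reflect only how arrays of a group differ, which may be technical, and the small number of arrays limits precision. Alternatives covered normalization, centring, pseudocount, filter, thresholds, blocks, probe set averaging and leaving out each array. The text names all members, up to 4 called genes of each list and comparison by size, and the 3 genes most correlated with each of 4 members. Members and lists were chosen with earlier results of these data known. Figures used python 3.11.15.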

Additional observations from a re-analysis of the deposited data

Results flagged for a closer look

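Among 27 sets of 4 arrays (9 genes in 3 groups, the IL-2 group taken with its replicate 3), 7 had 1 array far from the other 3 by Dixon's criterion. Chance gives about 1 in 20 such sets, a rate that does not apply to the IL-2 sets, which hold an array already set aside. Replicate 3 of the IL-2 group as labelled, the library without T cell transcripts, was the distant array for Rel (38.9), Nfkbia (3456), Nfkbie (279) and Bcl3 (140), on the low side each time. The IL-2 replicate 2 was the low one for Rela (3957), in a set whose other arrays included replicate 3 (4206). The 4.5 h replicate 2 was low for Nfkbia (11020.4) and high for Bcl3 (3302). The library set aside, which the main comparisons left out, stood above the other 11 arrays for Tnfaip3 (1237) and for Rela (4206).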

How the results depend on the processing

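Of 621 values of the 9 genes recomputed under the alternatives, 587 kept their direction and side of the threshold, 13 lost a call, 6 gained one and 15 changed sign, and the cause was not tested. Of 680 values of the listed genes named, 636 were kept, 41 lost a call, 0 gained one and 3 changed sign. For IL-2 over 4.5 h the count of genes called was 1, but 2 with no fold threshold, 0 with all 12 arrays and 4 with ribosomal protein centring. Over all genes 1401 of 12754 were called, and 29.3%, 4.40% and 27.4% under these settings. For 4.5 h over 30 min it was 7, or 5 with all 12 arrays, 5 with ribosomal protein centring (Rel and Nfkbib lost) and 6 with a pseudocount of 64. For IL-2 over 30 min the count was 6, but 3 with all 12 arrays and 5 with the mean over probe sets (Nfkbia lost). It was 7 with no fold threshold and 7 with ribosomal protein centring. The shares over all genes were 11.4%, 3.84%, 10.1%, 27.1% and 16.8% in that order. Leaving out 1 array at a time gave 1 to 1, 6 to 7 (4.5 h over 30 min) and 5 to 6, with no share over all genes computed for these fits. The replicate block gave 1, 7 and 6, as without it. Deviations of arrays with the same number correlated at −0.02 to 0.06 in the comparisons with 4.5 h. For IL-2 over 30 min they correlated at 0.126, 0.0915 and 0.216, each the highest value for its IL-2 array. Pairs with unlike numbers ran there from −0.193 to 0.165. Whether the numbers mark pairs was not tested. Sign changes for IL-2 over 4.5 h were, with ribosomal protein centring, Relb (0.64), Nfkbia (0.33) and Nfkbib (0.38), with quantile normalization, Nfkb2 (−0.010) and Tnfaip3 (−0.0064), with the mean over probe sets, Nfkb2 (−0.35), and with all 12 arrays, Bcl3 (−0.54). With 1 array left out Relb ran from −0.18 to 0.044 and turned without the IL-2 replicate 2 or the 4.5 h replicate 1, and Tnfaip3 ran from −0.11 to 0.11 and turned without the IL-2 replicate 4 or the 4.5 h replicate 2. Rela turned for 4.5 h over 30 min with median centring (0.040) and, in a range from −0.19 to 0.061, without the 30 min replicate 2 or 3 or the 4.5 h replicate 2. Malt1 turned with the mean over probe sets (−0.17), and Prkcq (−0.49) and Cd69 (−0.20) turned for IL-2 over 30 min with all 12 arrays. A fixed block for scan day could be fitted for IL-2 over 30 min alone and gave 6, again with no share over all genes computed.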
